A study of Mus musculus with 9 samples.

Results

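The T and NK cell genes described here are 33 genes that mark T lymphocytes and natural killer (NK) cells or carry out their work. They were chosen by name: the rows of the count table whose symbol was on the list, 33 of 54429 symbols in all, were read in all 9 libraries. RNA-seq counts came from whole tumors grown from NB9464, a murine neuroblastoma cell line with MYCN amplification, which was injected subcutaneously into wild-type C57BL/6 mice. Treatment began at a tumor volume of 250 mm3. The Vehicle group (3 tumors) received no active agent. The R788 + anti-PDL1 group (3 tumors) received R788, the oral prodrug fostamatinib that inhibits the kinase Syk, at 50 mg/kg, together with an antibody against the checkpoint ligand PD-L1. The Rad + R788 + anti-PDL1 group (3 tumors) received the same agents and 10 Gy of radiation, and its tumors are called irradiated replicates 1 to 3 below. The series lists 4 doses between day 28 and day 37. Each agent given alone was not analysed here, so the irradiated group differs from R788 + anti-PDL1 tumors by radiation but from Vehicle tumors by 3 agents at once. The tumors come from 1 transplanted line, and the labels do not state the number of mice beyond 1 tumor per library.

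A T cell recognizes antigen through its T cell receptor, whose signal is passed on by the CD3 and zeta chains, started by the kinase Lck, relayed by Zap70 and assembled on the adaptor Lat. CD8 and CD4 are the coreceptors that divide killer from helper T cells, and CD28, ICOS and CD27 are costimulatory receptors. NK cells carry no T cell receptor and read their targets with receptors such as NKp46 (Ncr1) and NKG2D (Klrk1). MYCN-amplified neuroblastoma is known as a tumor that few T cells enter.

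The libraries held 18276683 to 23397886 counts. A count of 0 allows up to 3 counts, or 0.114 to 0.221 CPM (counts per 1000000 counts of the library, whose total is scaled by the TMM method for its overall composition) depending on the library, and this covers counting error only, since PCR copies were not marked and reads may repeat a molecule. Irradiated replicate 1 differed most in composition. Across genes, which are not independent replicates, Pearson r between its log2 CPM and that of each other library was 0.886 to 0.928, against 0.958 to 0.990 among the other 8. It had counts for 18263 genes against 19732 to 22129, a TMM factor of 0.743 against 0.975 to 1.12, and 1.97% of its counts on mitochondrial genes against 3.48% to 5.71%. Of the markers of noradrenergic neuroblasts, Th, the first enzyme of catecholamine synthesis, was at 0 in all 9 libraries, whereas Hand2 had 6545 to 12901 counts and Mycn 1265 to 6107.

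T and NK cell transcripts were scarce in these tumors. Only 16 of the 33 genes passed the filter on low counts, which asks for about 10 counts in at least as many libraries as a group holds, and 17 were too low to be tested. Summed over all 33 genes, the level was 58.8 to 63.9 CPM in Vehicle tumors, 83.3 to 100.4 CPM in R788 + anti-PDL1 tumors, and 42.9, 70.0 and 141 CPM in irradiated replicates 1, 2 and 3. Tcf7 and Cd4 made up most of the sum in 7 of the 9 tumors, the others being irradiated replicate 3 and R788 + anti-PDL1 replicate 2. Without these genes, a choice made after their values were seen, the remaining 31 genes summed to 10.3 to 17.7 CPM in Vehicle tumors, 25.0 to 44.1 CPM with R788 + anti-PDL1, and 16.1, 20.1 and 84.7 CPM in the irradiated tumors. The R788 + anti-PDL1 tumors thus all lay above the Vehicle tumors, while the irradiated group was divided between 1 high tumor and 2 tumors within or just above the Vehicle range. In bulk tumors, fewer cells of a type and less RNA per cell cannot be told apart.

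A single tumor, irradiated replicate 3, dominated the list. It held the highest CPM of the 9 libraries for 25 of the 33 genes, whereas over all genes with a count it held the highest value for 11.5%. The exceptions were Klrd1, Klrb1c, Ncr1 and Lck, which were highest in R788 + anti-PDL1 replicate 2, Cd4 and Tcf7, highest in R788 + anti-PDL1 replicate 1, Cd27, highest in R788 + anti-PDL1 replicate 3, and Fasl, highest in irradiated replicate 2. None of the 33 genes was at 0 counts in irradiated replicate 3, against 11 in irradiated replicate 1, 3 in irradiated replicate 2, 0 to 3 in R788 + anti-PDL1 tumors and 3 to 8 in Vehicle tumors.

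**Figure D1:**
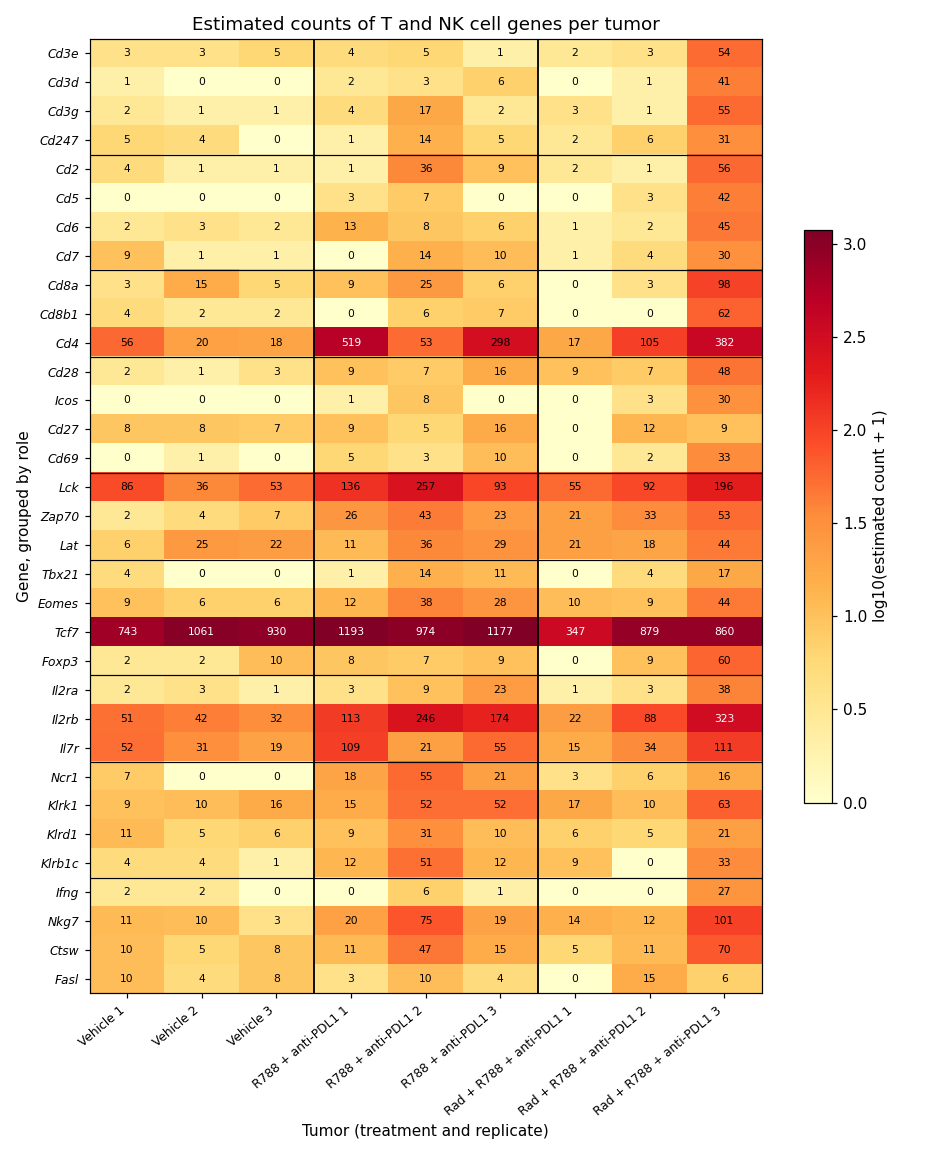
Estimated counts of the 33 T and NK cell genes (rows, grouped by role) in the 9 tumors (columns, grouped by treatment), with the count printed in each cell and the color on a log10(count + 1) scale. Irradiated replicate 3, the last column, holds the highest CPM for 25 of the 33 genes, and R788 + anti-PDL1 replicate 2 holds the highest CPM for Ncr1, Klrd1, Klrb1c and Lck.

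The CD3 genes, which encode the signalling chains that every T cell receptor needs, were among the genes with this pattern. The CPM of irradiated replicate 3 was 9.00 times that of the next tumor for Cd3e, 7.61 times for Cd3d and 3.87 times for Cd3g, and over the 33 genes this ratio was highest for Cd8b1, at 9.87. Cd3e had 3, 3 and 5 counts in Vehicle tumors, 4, 5 and 1 with R788 + anti-PDL1, and 2, 3 and 54 in irradiated replicates 1 to 3. Cd3d had 1, 0 and 0 counts in Vehicle, 2, 3 and 6 with R788 + anti-PDL1, and 0, 1 and 41 in the irradiated tumors. Cd3g had 2, 1 and 1 counts in Vehicle, 4, 17 and 2 with R788 + anti-PDL1, and 3, 1 and 55 in the irradiated tumors. In each of these genes 8 tumors had 17 counts or fewer and irradiated replicate 3 had 41 or more. Cd247, the zeta chain, which NK cells also use, had 5, 4 and 0 counts in Vehicle, 1, 14 and 5 with R788 + anti-PDL1, and 2, 6 and 31 in the irradiated tumors. Together the 4 chains took 181 counts in irradiated replicate 3, or 8.87 CPM of the unscaled total (95% exact Clopper-Pearson interval 7.63 to 10.3). The next highest tumor, R788 + anti-PDL1 replicate 2, had 39 counts, or 1.67 CPM (1.19 to 2.28). These intervals cover counting error in 1 library each and not the spread between tumors. None of the 4 genes passed the filter, since too few libraries reached the required count.

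Cd3e (chr9:44998740-45009627, minus strand), Cd3d (chr9:44981786-44987339, plus strand) and Cd3g (chr9:44969572-44980431, minus strand) lie within 40.1 kb on mouse chromosome 9 (GENCODE M21, build GRCm38). Cd3g and Cd3d are read away from each other from starts 1355 bases apart. The 250 bases before the start of each (RefSeq, GRCm38.p6) are shown because this neighbouring pair was high in the same tumor. Beside them stand those of 2 NK receptor genes, Ncr1, which was highest in R788 + anti-PDL1 replicate 2, and Klrk1, which like the CD3 genes was highest in irradiated replicate 3. Each runs 5′ to 3′ on the gene's strand, from chr9:44981536-44981785 (plus) for Cd3d, chr9:44980432-44980681 (minus) for Cd3g, chr7:4337474-4337723 (plus) for the second of the Ncr1 windows and chr6:129623865-129624114 (minus) for Klrk1. Capitals mark cores of 6 letters. TGTGGT is the core bound by RUNX factors and is written ACCACA where it lies on the opposite strand. GGAAGT is a core bound by ETS factors and is written ACTTCC where it lies on the opposite strand.

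Cd3d: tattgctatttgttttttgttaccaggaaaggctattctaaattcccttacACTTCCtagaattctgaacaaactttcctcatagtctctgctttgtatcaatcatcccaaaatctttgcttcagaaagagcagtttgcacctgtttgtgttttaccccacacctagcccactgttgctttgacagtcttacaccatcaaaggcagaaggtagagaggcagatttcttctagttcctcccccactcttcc
Cd3g: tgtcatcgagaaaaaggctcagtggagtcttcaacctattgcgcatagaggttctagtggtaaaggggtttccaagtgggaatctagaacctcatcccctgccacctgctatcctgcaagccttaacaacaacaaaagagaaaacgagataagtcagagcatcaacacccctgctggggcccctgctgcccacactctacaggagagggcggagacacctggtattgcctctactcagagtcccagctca
Ncr1: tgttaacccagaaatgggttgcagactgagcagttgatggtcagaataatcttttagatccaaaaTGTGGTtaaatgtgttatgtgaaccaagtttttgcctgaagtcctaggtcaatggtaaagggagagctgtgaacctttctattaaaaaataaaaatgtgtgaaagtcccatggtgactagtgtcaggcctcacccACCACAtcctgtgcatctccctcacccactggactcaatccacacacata
Klrk1: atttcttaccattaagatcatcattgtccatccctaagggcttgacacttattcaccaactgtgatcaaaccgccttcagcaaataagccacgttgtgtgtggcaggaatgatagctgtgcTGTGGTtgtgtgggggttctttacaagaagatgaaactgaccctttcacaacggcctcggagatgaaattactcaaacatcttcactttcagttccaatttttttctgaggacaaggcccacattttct

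RefSeq gave such windows for 22 of the 33 genes, 28 windows in all. The RUNX letters occurred in 7 of the 28 windows (25%), against 14.0% of all 32536 windows of this length. The ETS letters occurred in 13 (46.4%), against 19.8%. Some genes have several windows, and the 2 Ncr1 windows overlap and hold the same RUNX cores, which are therefore counted in both. In the windows shown, Cd3d held 1 ETS core beginning 199 bases before the start, Ncr1 held RUNX cores 185 and 50 bases before it, Klrk1 held 1 RUNX core 129 bases before it, and Cd3g held neither. The cores were searched on both strands and share no letters with each other, and a match describes the letters, not binding.

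The genes of 4 pan-T cell surface proteins were also highest in irradiated replicate 3, at 1.86 (Cd2) to 7.17 (Cd5) times the CPM of the next tumor. Cd2, an adhesion receptor of T and NK cells, had 4, 1 and 1 counts in Vehicle tumors, 1, 36 and 9 with R788 + anti-PDL1, and 2, 1 and 56 in the irradiated tumors. Cd5, a brake on receptor signalling, was at 0 in all 3 Vehicle tumors and had 3, 7 and 0 counts with R788 + anti-PDL1 and 0, 3 and 42 after irradiation. The irradiated mean was at least 4.45-fold above the mean floor (3 counts per library) of the Vehicle libraries, and this bound rests on irradiated replicate 3. Cd6, a CD5 relative, had 2, 3 and 2 counts in Vehicle, 13, 8 and 6 with R788 + anti-PDL1, and 1, 2 and 45 in the irradiated tumors. It was the only gene of the 4 for which every R788 + anti-PDL1 tumor exceeded every Vehicle tumor. Cd7 had 9, 1 and 1, then 0, 14 and 10, then 1, 4 and 30 counts in the same order of groups, and its groups overlapped.

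Of the coreceptors, the CD8 chains were highest by far in irradiated replicate 3, whereas Cd4 was high in tumors of both treated groups. Cd8a had 3, 15 and 5 counts in Vehicle tumors, 9, 25 and 6 with R788 + anti-PDL1, and 0, 3 and 98 in the irradiated tumors. Cd8b1, its partner in the killer T cell coreceptor, lies within the same 56.4 kb of chromosome 6 and had 4, 2 and 2, then 0, 6 and 7, then 0, 0 and 62 counts. Both genes therefore had their lowest and their highest counts inside the irradiated group. Cd4, the helper T cell coreceptor that some myeloid cells also carry, had 56, 20 and 18 counts in Vehicle tumors, 519, 53 and 298 with R788 + anti-PDL1, and 17, 105 and 382 in the irradiated tumors. The highest Cd4 count, 519 in R788 + anti-PDL1 replicate 1, fell in a tumor with 4 Cd3e and 2 Cd3d counts. The treated and Vehicle ranges of Cd4 met, since R788 + anti-PDL1 replicate 2 lay below Vehicle replicate 1.

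The costimulatory and activation receptors were low in most tumors, and all but Cd27 were highest in irradiated replicate 3. Cd28, the main costimulatory receptor, had 2, 1 and 3 counts in Vehicle tumors, 9, 7 and 16 with R788 + anti-PDL1, and 9, 7 and 48 in the irradiated tumors. All 6 treated tumors lay above all 3 Vehicle tumors. Icos, the inducible costimulator, was at 0 in the Vehicle tumors and had 1, 8 and 0 counts with R788 + anti-PDL1 and 0, 3 and 30 in the irradiated tumors. This put its irradiated mean at least 3.27-fold above the Vehicle floor, again through irradiated replicate 3. Cd69, an early activation marker, had 0, 1 and 0 counts in Vehicle, 5, 3 and 10 with R788 + anti-PDL1, and 0, 2 and 33 in the irradiated tumors. Cd27 did not follow the others, with 8, 8 and 7 counts in Vehicle, 9, 5 and 16 with R788 + anti-PDL1, and 0, 12 and 9 in the irradiated tumors.

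The proximal signalling genes all passed the filter, although Zap70 was near the floor in Vehicle tumors. Zap70, the kinase that docks on phosphorylated CD3 and zeta chains, is the T and NK cell relative of Syk, the target of R788. It had 2, 4 and 7 counts in Vehicle tumors, 26, 43 and 23 with R788 + anti-PDL1, and 21, 33 and 53 in the irradiated tumors. Every treated tumor had at least 21 counts and no Vehicle tumor more than 7, so its difference did not depend on a single tumor. The CD3 and zeta chains did not share it, with 7 and 11 counts in irradiated replicates 1 and 2 and 6 to 11 in Vehicle tumors. The NK receptors had 35 and 21 counts in these 2 irradiated tumors and 19 to 31 in Vehicle tumors. On the CPM scale irradiated replicate 1 (2.58 CPM) lay above the Vehicle tumors (0.852 to 1.71 CPM) and irradiated replicate 2 (1.06 CPM) within them. With R788 + anti-PDL1 the NK receptors had 54, 189 and 95 counts, above every Vehicle tumor. The CD3 and zeta chains had 11, 39 and 14 counts there. Lck, the kinase that phosphorylates these chains, had 86, 36 and 53 counts in Vehicle, 136, 257 and 93 with R788 + anti-PDL1, and 55, 92 and 196 in the irradiated tumors. Lat, the membrane adaptor, had 6, 25 and 22, then 11, 36 and 29, then 21, 18 and 44 counts, with overlapping groups. Lck, Lat and 9 other members (Cd3e, Cd247, Icos, Cd27, Tcf7, Foxp3, Il2ra, Klrb1c and Ifng) overlap another annotated gene on the same strand, and Cd7, Zap70, Eomes and Ctsw overlap 1 on the opposite strand only. The counting is not stated to use strand, so the counts of these 15 genes are uncertain in the part that could be shared.

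Among the transcription factors, Tcf7 stood at another scale from the rest. Tcf7 encodes TCF-1, which early and memory-like T cells use and which also acts in Wnt signalling in other cells. It had 743, 1061 and 930 counts in Vehicle tumors, 1193, 974 and 1177 with R788 + anti-PDL1, and 347, 879 and 860 in the irradiated tumors, so it was abundant also where the CD3 genes were near 0. Per kilobase of exon, its level over the 9 tumors averaged 16.4 CPM, against 1.82 for Cd4, 1.76 for Lck and 0.37 for Zap70. Eomes, a T-box factor of NK cells and memory killer T cells, had 9, 6 and 6 counts in Vehicle, 12, 38 and 28 with R788 + anti-PDL1, and 10, 9 and 44 in the irradiated tumors. Tbx21 (T-bet), the type 1 T-box factor, had 4, 0 and 0, then 1, 14 and 11, then 0, 4 and 17 counts. Foxp3, which defines regulatory T cells, had 2, 2 and 10 counts in Vehicle, 8, 7 and 9 with R788 + anti-PDL1, and 0, 9 and 60 in the irradiated tumors. Only for Eomes did every R788 + anti-PDL1 tumor lie above every Vehicle tumor.

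The cytokine receptor Il2rb, the chain of the IL-2 and IL-15 receptors shared by T and NK cells, had the most counts over all tumors after Tcf7 and Cd4. It had 51, 42 and 32 counts in Vehicle tumors, 113, 246 and 174 with R788 + anti-PDL1, and 22, 88 and 323 in the irradiated tumors. The R788 + anti-PDL1 tumors were all above Vehicle, and the irradiated tumors lay on both sides of it. Il2ra, the high-affinity IL-2 receptor chain, had 2, 3 and 1, then 3, 9 and 23, then 1, 3 and 38 counts. Il7r, the IL-7 receptor chain of naive and memory T cells, had 52, 31 and 19, then 109, 21 and 55, then 15, 34 and 111 counts, with wide overlap.

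Of the 4 NK receptors, Ncr1, Klrb1c and Klrd1 were highest in a different tumor, R788 + anti-PDL1 replicate 2, and Klrk1 was highest in irradiated replicate 3. Ncr1, the most NK-restricted of them, had 7, 0 and 0 counts in Vehicle tumors, 18, 55 and 21 with R788 + anti-PDL1, and 3, 6 and 16 in the irradiated tumors. It was the only one of the 33 genes with every irradiated tumor below every R788 + anti-PDL1 tumor on the CPM scale. Klrb1c (NK1.1) had 4, 4 and 1 counts in Vehicle, 12, 51 and 12 with R788 + anti-PDL1, and 9, 0 and 33 in the irradiated tumors. Klrk1 (NKG2D) had 9, 10 and 16, then 15, 52 and 52, then 17, 10 and 63 counts. Klrd1 (CD94) had 11, 5 and 6, then 9, 31 and 10, then 6, 5 and 21 counts. Klrb1c, Klrd1 and Klrk1 lie within 845.4 kb of chromosome 6. Together the 4 NK receptors took 189 counts in R788 + anti-PDL1 replicate 2, or 8.08 CPM of the unscaled total (95% exact Clopper-Pearson interval 6.97 to 9.31), and 133 in irradiated replicate 3, or 6.52 CPM (5.46 to 7.73).

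Setting the NK receptors against the CD3 and zeta chains within each tumor shows how the 2 high tumors differ. There were 2.38 to 3.83 NK receptor counts per CD3 and zeta count in Vehicle tumors and 4.85 to 6.79 with R788 + anti-PDL1. In irradiated replicates 1, 2 and 3 the ratio was 5, 1.91 and 0.735. Irradiated replicate 3 was the only tumor with more CD3 and zeta counts than NK receptor counts. In 6 of the 9 tumors, the 3 Vehicle tumors among them, the ratio rests on 6 to 11 CD3 and zeta counts. These ratios compare summed counts between tumors, not levels between genes, since gene lengths differ.

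**Figure D2:**
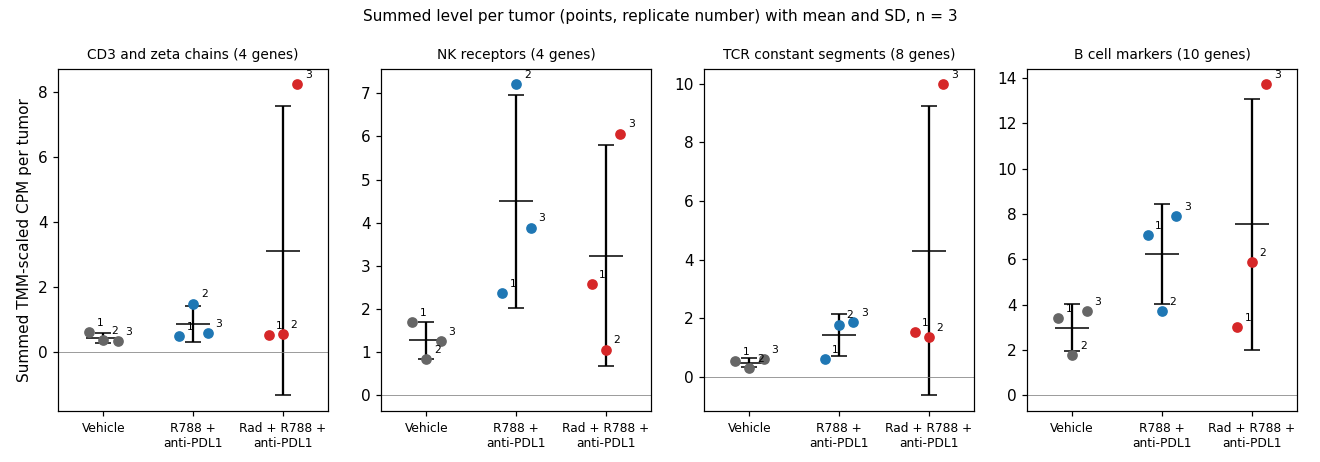
Summed TMM-scaled CPM per tumor (vertical axes, each panel with its own scale) for the 4 CD3 and zeta chains, the 4 NK receptors, the 8 T cell receptor constant segments and the 10 B cell markers, by treatment; points are tumors with their replicate numbers, bars the mean and SD (n = 3). Irradiated replicate 3 is highest in 3 panels, and R788 + anti-PDL1 replicate 2 (7.21 CPM) is highest for NK receptors, ahead of irradiated replicate 3 (6.07 CPM).

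Of the effector genes, Ifng, Nkg7 and Ctsw were highest in irradiated replicate 3 and Fasl in irradiated replicate 2. Ifng, the main type 1 cytokine, had 2, 2 and 0 counts in Vehicle tumors, 0, 6 and 1 with R788 + anti-PDL1, and 0, 0 and 27 in the irradiated tumors. Nkg7, a protein of cytotoxic granules, had 11, 10 and 3 counts in Vehicle, 20, 75 and 19 with R788 + anti-PDL1, and 14, 12 and 101 in the irradiated tumors. All 6 treated tumors lay above the Vehicle tumors on the CPM scale, although irradiated replicate 2, at 0.608 CPM, exceeded Vehicle replicate 1, at 0.607 CPM, only narrowly. Ctsw, a cathepsin of cytotoxic cells, had 10, 5 and 8, then 11, 47 and 15, then 5, 11 and 70 counts. Fasl, the death ligand, had 10, 4 and 8, then 3, 10 and 4, then 0, 15 and 6 counts, with no higher group.

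The first comparison asks how tumors given R788 + anti-PDL1 differed from Vehicle tumors. Most T and NK cell genes had higher values after treatment, led by Zap70, Ncr1, Cd4, Il2rb and Cd28, but none passed the test across all genes. The mean CPM was higher in 30 of the 33 genes. Every treated tumor was above every Vehicle tumor for 10 of the 33 (Cd3d, Cd6, Cd28, Cd69, Zap70, Eomes, Il2rb, Ncr1, Klrb1c and Nkg7) and below for 0, against 9.93% (higher) and 10.2% (lower) of all genes with a count. By the edgeR quasi-likelihood test with Benjamini-Hochberg adjustment over 15931 genes, 0 of the 16 tested members were called at an adjusted p under 0.05, against 0.678% of all genes tested. At an unadjusted p under 0.05 there were 5 members, all higher, against 11.7% of all genes in either direction. The median log2 fold change of the 16 was 1.45, and that of all genes tested was -0.02. Members reach this filter through the group in which they are high, so this median and the counts over tested members describe them and are no support for a shift of the list.

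Zap70 had the lowest adjusted p of the members in this comparison. Its level was 1.24 ± 0.359 CPM with R788 + anti-PDL1 and 0.224 ± 0.142 CPM in Vehicle (mean ± SD, n = 3), a log2 fold change of 2.45 ± 0.59 (SE, edgeR adjusted p = 0.108). DESeq2, which called 770 genes in this comparison, called it (log2 fold change 2.51, adjusted p = 0.00401). Ncr1 was 1.25 ± 0.735 against 0.129 ± 0.223 CPM (3.27 ± 1.18, edgeR adjusted p = 0.304). Its Vehicle level rests on 7 counts in Vehicle replicate 1, and the fitted log2 fold change was 7.75 without that tumor, a value set by the prior count because the remaining Vehicle tumors were at 0. Cd4 was 12.4 ± 10.4 against 1.66 ± 1.24 CPM (2.90 ± 1.06, edgeR adjusted p = 0.319), and DESeq2 called it at an adjusted p of 0.0375. Il2rb was 7.16 ± 2.20 against 2.15 ± 0.579 CPM (1.74 ± 0.69, edgeR adjusted p = 0.364). A fit to the 6 libraries of this comparison alone called 594 genes, with Il2rb (edgeR adjusted p = 0.0424) the only member among them. Cd28 was 0.439 ± 0.198 against 0.106 ± 0.0598 CPM (2.01 ± 0.89, edgeR adjusted p = 0.426). For Cd8a, at 0.532 ± 0.373 against 0.371 ± 0.267 CPM, the log2 fold change of 0.50 ± 1.41 (edgeR adjusted p = 0.933) was smaller than its error, and it turned to -0.23 without R788 + anti-PDL1 replicate 2.

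The second comparison sets irradiated tumors against Vehicle tumors. Zap70, Cd28 and Nkg7 were higher in every irradiated tumor, and irradiated replicate 3 raised the mean of most other members. The mean was higher in 30 of the 33 genes, but the groups did not overlap for only 3 of 33 (higher) and 0 (lower), against 6.49% and 7.21% of all genes with a count. EdgeR called 0 of 16 members, against 0.0439% of all genes, and 4 members had an unadjusted p under 0.05, all higher, against 13.2%. The median log2 fold change was 1.72 for the tested members and 0.05 for all genes tested. Zap70 was 1.88 ± 0.470 CPM in irradiated tumors (log2 fold change 3.04 ± 0.59, n = 3, edgeR adjusted p = 0.119), and 2.81 on the log2 scale without irradiated replicate 3. DESeq2 called 613 genes, among them Zap70 (3.11, adjusted p = 0.000220) and Cd28 (adjusted p = 0.0364). Cd28 was 1.07 ± 0.982 CPM (3.30 ± 0.89, edgeR adjusted p = 0.222). Nkg7 was 2.08 ± 2.20 CPM against 0.407 ± 0.224 in Vehicle (2.35 ± 0.92, edgeR adjusted p = 0.341), and 0.98 on the log2 scale without irradiated replicate 3.

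The remaining members named in this comparison had SDs of similar size to their means. Il2rb was 6.94 ± 6.90 CPM (log2 fold change 1.70 ± 0.69, edgeR adjusted p = 0.354) and Eomes 1.07 ± 0.826 CPM against 0.365 ± 0.118 (1.55 ± 0.70, edgeR adjusted p = 0.381). Cd4 was 8.0 ± 8.41 CPM (2.28 ± 1.04, edgeR adjusted p = 0.383). Cd8a was 1.54 ± 2.54 CPM (2.04 ± 1.41, edgeR adjusted p = 0.497), and without irradiated replicate 3 its log2 fold change was -2.08. Without that tumor the log2 fold change was 0.51 for Il2rb, 0.69 for Eomes and 1.0 for Cd4.

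**Figure D3:**
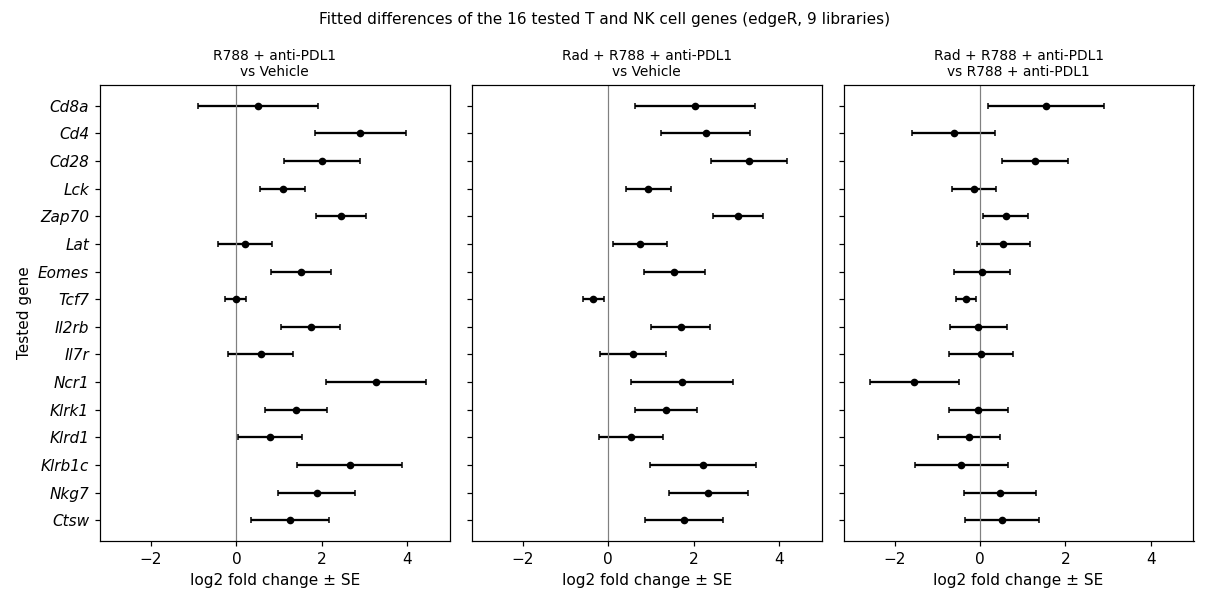
Log2 fold changes (horizontal axes) of the 16 tested T and NK cell genes in the 3 comparisons, as points with bars of 1 SE from the edgeR fit to 9 libraries. In both comparisons with Vehicle 15 of the 16 points lie above 0 while Tcf7 lies at or below it, and in the comparison of the treated groups 8 lie above and 8 below 0.

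The third comparison asks what differed when radiation was added to R788 + anti-PDL1. The members did not move one way. Means were higher in 23 of the 33 genes, yet every irradiated tumor exceeded every R788 + anti-PDL1 tumor for 0 of 33 genes and lay below for 1, Ncr1, against 9.16% and 9.08% of all genes with a count. EdgeR called 0 of 16 members, against 0.00628% of all genes, and 0 had an unadjusted p under 0.05, against 18.4%. DESeq2 also called 0 members, against 823 of all genes. The median log2 fold change was -0.01 for the members and 0.04 for all genes. Cd28 had a log2 fold change of 1.29 ± 0.77 (edgeR adjusted p = 0.373). Ncr1 was 0.418 ± 0.273 CPM in irradiated tumors, a log2 fold change of -1.54 ± 1.04 (edgeR adjusted p = 0.424). Tcf7 was 36.4 ± 9.80 against 46.0 ± 7.93 CPM (-0.33 ± 0.24, edgeR adjusted p = 0.452), and Zap70 differed by 0.60 ± 0.52 on the log2 scale (edgeR adjusted p = 0.531). Cd8a differed by 1.54 ± 1.36 (edgeR adjusted p = 0.535) and Cd4 by -0.62 ± 0.98 (edgeR adjusted p = 0.744). The 3 comparisons share groups, so their values are not independent of one another.

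Leaving out irradiated replicate 3 changed both comparisons of the irradiated group. Of 15 members tested with and without it, 14 log2 fold changes against Vehicle were above 0 with all tumors and 11 without it, and the median went from 1.70 to 0.51. Cd8a (2.04 to -2.08), Il7r (0.59 to -0.31) and Klrd1 (0.53 to -0.17) changed sign. Against R788 + anti-PDL1, 7 of the 15 were above 0 with all tumors and 2 without it, Zap70 (0.37) and Lat (0.26), and the median went from -0.04 to -0.89. Nkg7 turned from 0.47 to -0.89 and Ctsw from 0.52 to -1.04. Zap70 thus kept its direction in both comparisons. For the summed level of all 33 genes against Vehicle, the log2 ratio of group means was 0.46 with all tumors and -0.13 without this one.

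**Figure D4:**
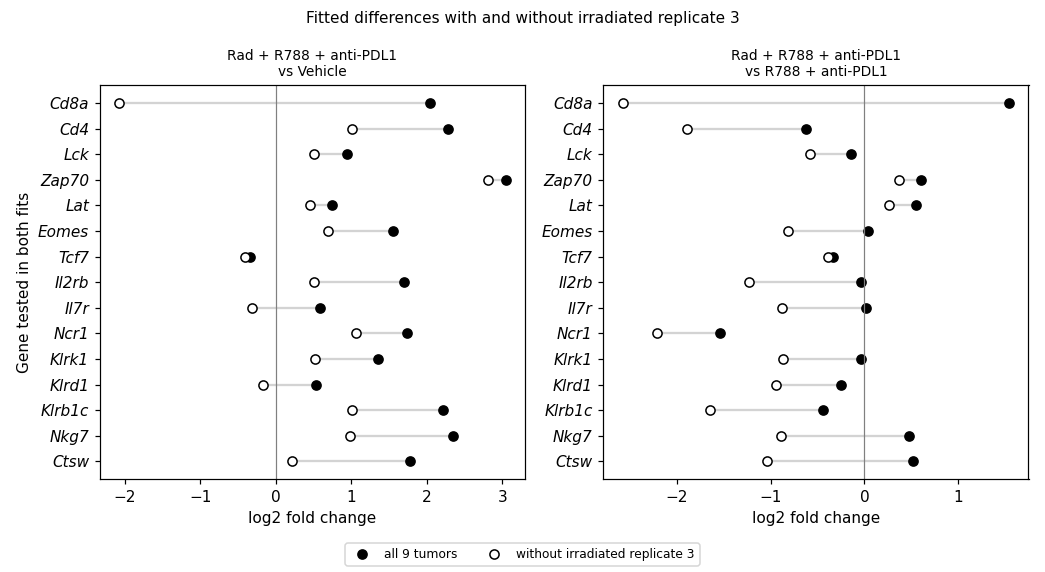
Log2 fold changes (horizontal axes) of the 15 genes tested in both fits, with all 9 tumors (filled) and without irradiated replicate 3 (open), for irradiated against Vehicle (left) and against R788 + anti-PDL1 tumors (right). Cd8a moves the furthest, from 2.04 to -2.08 on the left and from 1.54 to -2.58 on the right, and Zap70 stays above 0 in both.

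Genes of the same cells that are not on the list gave the following values. The 8 T cell receptor constant segments, which belong to the antigen receptor chains of T cells and whose unrearranged transcripts NK cells can also make, summed to 0.314 to 0.602 CPM in Vehicle tumors, 0.617 to 1.88 CPM with R788 + anti-PDL1, and 1.55, 1.37 and 9.99 CPM in irradiated replicates 1 to 3. Trbc1 had 3, 3 and 9, then 6, 20 and 9, then 12, 2 and 95 counts in Vehicle, R788 + anti-PDL1 and irradiated tumors, and Trac had 7, 2 and 2, then 1, 5 and 15, then 3, 19 and 64. Of these segments 2 were tested and 0 were called in any comparison. Each of the 3 irradiated tumors lay above each of the Vehicle tumors in this sum, including those in which CD3 and zeta chains did not. The 20 other NK cell genes (12 tested, 0 called), led in level by Itga2 and Cd244a, summed to 5.86 to 7.13 CPM in Vehicle, 8.41 to 16.2 CPM with R788 + anti-PDL1, and 9.65 to 18.7 CPM in irradiated tumors. Among 23 further T cell receptor signalling genes, 20 were tested and 0 called. Their sum, led by Plcg1 and Csk, which many cell types express, was 383 to 475 CPM in Vehicle tumors, 417 to 491 CPM with R788 + anti-PDL1 and 349 to 589 CPM in irradiated tumors.

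The killing machinery and the inhibitory receptors differed in how evenly they were spread. The 11 cytotoxic granule genes, led by Srgn, which myeloid cells also express, and Gzmc, summed to 26.7 to 42.6 CPM in Vehicle tumors, 33.3 to 34.6 CPM with R788 + anti-PDL1, and 93.3, 57.7 and 80.2 CPM in irradiated replicates 1 to 3. On the TMM scale this is the only one of these lists in which irradiated replicate 1 was the highest tumor. Its CD3 and zeta genes had 7 counts. The order rests on its TMM factor of 0.743, against 1.07 in irradiated replicate 3. The granule genes had 1266 of 18276683 counts in irradiated replicate 1 and 1758 of 20402165 in irradiated replicate 3. On unscaled totals irradiated replicate 3 was thus the higher. Most of the sum in irradiated replicate 1 came from Gzmc, Gzmd and Gzmg, with 26.8, 16.6 and 16.4 CPM. Its Prf1 (3.76 CPM) lay within the Vehicle range of 2.30 to 4.30 CPM, and Gzmk and Gzmm were at 0. Its Gzmb (3.90 CPM) and Gzma (2.28 CPM) lay above all Vehicle tumors on the TMM scale. For Gzmb this too rests on the scaling, with 53 counts there and 66, 34 and 59 in Vehicle tumors. Gzma was highest in R788 + anti-PDL1 replicate 2 (8.05 CPM). These genes were chosen after their values were seen. Of 9 tested granule genes, 0 were called, and 6 had an unadjusted p under 0.05 and a higher value in irradiated than in Vehicle tumors (lowest edgeR adjusted p = 0.273). Gzmc had 160, 109 and 99 counts in Vehicle, 147, 37 and 118 with R788 + anti-PDL1, and 364, 229 and 241 in irradiated tumors. The 7 inhibitory receptor genes (2 tested, 0 called), led by Lag3 and Havcr2, summed to 2.19 to 2.54 CPM in Vehicle tumors, 3.83 to 7.02 CPM with R788 + anti-PDL1 and 6.41, 2.99 and 15.8 CPM in irradiated replicates 1 to 3.

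Sums of markers of several other leukocytes were also high in irradiated replicate 3. The 10 macrophage markers summed to 1876 CPM there and to 316 to 714 CPM in the other 8 tumors, and the 7 pan-leukocyte genes to 471 CPM against 87.9 to 241 CPM. The 10 B cell markers summed to 13.7 CPM in irradiated replicate 3 and to 1.79 to 7.90 CPM elsewhere, and only 1 of the 10 was at 0 there. The 7 dendritic cell markers summed to 36.4 CPM against 16.6 to 28.7 CPM, the 7 neutrophil markers to 17.7 CPM against 3.13 to 11.8 CPM, and the 6 plasma cell markers to 16.9 CPM against 3.70 to 12.2 CPM. Single genes made most of the B cell, dendritic cell, neutrophil and plasma cell sums in this tumor. They were Cd22 with 10.2 CPM, Itgax with 20.3 CPM, Csf3r with 13.7 CPM and Ighm with 16.3 CPM. Of the macrophage markers, Cd68 was not highest there (50.6 CPM, against 65.6 CPM in R788 + anti-PDL1 replicate 1). Of the dendritic cell markers, only Itgax and Xcr1 were highest there. S100a8 (1.003 CPM, against 3.36 CPM in Vehicle replicate 2) and Jchain (0.0456 CPM) were not highest there. The genes named for these sums were chosen after their values were seen. The 6 genes of lymph node stroma summed to 2.87 CPM in this tumor, within the 0.852 to 4.87 CPM of the others. Their part in the values of the T and NK cell genes was not tested. Mast cell markers (5 genes) followed the treatment in another way, with 39.2 to 59.7 CPM in R788 + anti-PDL1 tumors, 0.897 to 9.71 CPM in Vehicle and 4.11 to 8.91 CPM in irradiated tumors, so they were high in the tumors where Ncr1 was high, and their part in its value was not tested either.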

How the data were processed

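RNA was sequenced from 9 whole tumors, 3 per group, and groups were taken from the treatment labels. The authors used STAR for alignment to mm10 and Salmon, run through bcbio, for quantification, as the methods state. The submitters' processing notes give STAR 2.6.1d and Salmon 1.4.0. The deposited table holds estimated counts per gene symbol as whole numbers, without normalization. The labels give whole tumor as the tissue, although their extraction protocol mentions macrophages, and the sequencing run is described differently in the labels and the methods. Strandedness is not given in the sources used here. Low genes are therefore limited by counting, and overlapping genes may share reads.

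The counts were fitted in edgeR 4.0.16 (R 4.3.3) with all 9 libraries in 1 model, a coefficient per group and no covariate, after filterByExpr (minimum count 10; 15931 genes kept) and TMM scaling. The robust quasi-likelihood F test was used, two-sided, with Benjamini-Hochberg adjustment over all genes tested and a threshold of 0.05. Where nothing shows that tumors of a group are separate experiments, p-values measure the spread between these samples. Alternatives were DESeq2 1.42.0, limma-voom (limma 3.58.1) with and without sample quality weights, RLE and upper-quartile scaling, 3 other filters, the 6 libraries compared alone, leaving out each tumor and a replicate block. The fitting step was tested on simulated data. Gene positions, exon lengths and overlaps came from GENCODE M21 and promoter windows from RefSeq GRCm38.p6. All 33 members are given by counts. Fold changes with errors are given for the 5 tested members with the lowest unadjusted p in each comparison and for Cd8a and Cd4. The genes named as leading another list are the 2 with the highest mean CPM. Further genes of those lists, such as Gzmb and S100a8, were chosen after their values were seen. Other values, such as the sign changes without irradiated replicate 3, were chosen after they were seen. Members, lists and tests were chosen with earlier results of these data known.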

Additional observations from a re-analysis of the deposited data

How the results depend on the processing

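In all 3 comparisons 0 members were called also under RLE and upper-quartile scaling, all 3 other filters, leaving out any 1 tumor and limma-voom. For R788 + anti-PDL1 against Vehicle, DESeq2 called 2 members (Cd4 and Zap70), limma-voom with quality weights 4 (Cd4, Zap70, Il2rb and Ncr1) and the fit to the 6 libraries compared 1 (Il2rb). Over all genes, DESeq2 called 770 and quality weights 4835 of the 15931 tested, and the fit to the 6 libraries called 594. For irradiated against Vehicle, DESeq2 called 2 (Cd28 and Zap70) and quality weights 3 (Zap70, Il2rb and Ncr1), against 613 and 1993 of all genes. For irradiated against R788 + anti-PDL1 no alternative called a member, although DESeq2 called 823 and quality weights 3080 of all genes. The cause of these differences was not tested.

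The members' median log2 fold change for R788 + anti-PDL1 against Vehicle was 1.14 with at least 10 counts in every library, a filter that left 5 members, and 1.01 (without R788 + anti-PDL1 replicate 2) to 1.81 (without Vehicle replicate 1) when 1 tumor was left out. For irradiated against Vehicle it was 1.2 with limma-voom, 0.97 with at least 10 counts in every library, and 0.50 (without irradiated replicate 3) to 2.55 (without Vehicle replicate 1). For irradiated against R788 + anti-PDL1 it was 0.57 with no filter, and -0.88 (without irradiated replicate 3) to 0.74 (without irradiated replicate 2). The log2 ratio of summed CPM was 0.56 (R788 + anti-PDL1) and 0.46 (irradiated) against Vehicle over 33 genes, and 1.27 and 1.60 without Tcf7 and Cd4, an alternative added after seeing the data. Cd8a for R788 + anti-PDL1 against Vehicle was -0.20 with quality weights and -0.23 to 1.25 when 1 tumor was left out. For irradiated tumors it was -2.08 to 2.79 against Vehicle and -2.58 to 2.27 against R788 + anti-PDL1 in the same way, and -0.37 in the latter with limma-voom. Cd4 in the latter was -1.89 to 0.18, above 0 without R788 + anti-PDL1 replicate 1.

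The replicate numbers are not said to pair tumors and were not taken as pairs. Same-numbered tumors of different groups had deviations correlated at -0.05 to 0.29, over 0.1 in 2 of 9 pairs. Other-numbered tumors had -0.29 to 0.17, over 0.1 in 3 of 18 pairs. These ranges overlap and do not decide whether the numbers pair tumors. With a replicate block, 0 members were called in each comparison, and the medians were 1.43, 1.33 and -0.14. Depth limits 17 of the 33 genes, which were too low to test, and an absent call there does not show equal levels.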
